A study of Homo sapiens with 15 samples.

Results

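The respiratory chain of the mitochondrial inner membrane is built from complexes I to IV, which pass electrons to oxygen and, except for complex II, pump protons, and from ATP synthase, which uses the proton gradient to make ATP. Nearly all of its subunits are encoded in the nucleus, translated in the cytosol and imported, while a small core is encoded by mitochondrial DNA (mtDNA) and translated inside the organelle. The mRNAs of the nuclear-encoded subunits were followed here in pellets from cytosolic extracts of U2OS cells, a human osteosarcoma line. Members were the protein-coding genes whose symbols begin with NDUF, UQCR, ATP5 or COX and a digit, together with SDHA, SDHB, SDHC, SDHD and CYC1. Pseudogenes and genes of the mitochondrial chromosome were left out. The names gave 108 nuclear protein-coding genes, of which 100 reached 10 counts in 2 or more replicates of all 5 conditions and so were among the 16612 genes tested. The other 8 were below this limit, namely ATP5MGL, NDUFA4L2, COX4I2, COX6A2, COX7B2, COX8C and the read-through genes ATP5MF-PTCD1 and NDUFC2-KCTD14. The names also take in assembly factors that do not stay in the finished complexes, so the 100 genes comprised 37 of complex I, 4 of complex II, 10 of complex III, 14 of complex IV, 18 of ATP synthase and 17 assembly factors.

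Poly(A) RNA was sequenced from 15 libraries, 3 biological replicates in each of 5 groups. The input was cleared extract without the later pelleting spin, and no incubation was given for it. The other 4 groups were pellets of extract held for 2 h at 37 °C in translation reactions, either untreated (mock) or given silvestrol at 2 µg/ml, PEG at 1% or dsRNA at 250 nM. Double-stranded RNA activates the kinase PKR, silvestrol inhibits the translation factor eIF4A, and PEG is a molecular crowder. The labels give the cells as wild type, whereas the study's methods describe condensates of YFP-tagged G3BP1, and which of these applied to the sequenced extract was not given. All groups are cell-free extract of 1 cell line, and a pellet holds whatever sedimented. In comparisons with the input, the pelleting spin and the 2 h reaction cannot be told apart. Total counts per library lay between 15341973 and 46939993, with the lowest in PEG replicate 1. Of the lineage markers, RUNX2, a transcription factor of bone cells, had group means between 51.5 and 66.5 CPM (counts scaled to a common library size), while the collagen gene COL1A2 did not pass the count limit. Of 5 markers of other cell types, PTPRC, PECAM1, KRT5 and ALB did not pass it either, whereas EPCAM, an epithelial surface protein, did, with group means between 6.90 and 15.8 CPM. Counts are relative within a library, so less of an mRNA in a pellet and more of all other RNA there cannot be told apart.

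A feature that the choice of names did not use is the start of the coding sequence. The 8 letters ATGGCGGC at the annotated start codon, read on the coding strand of 1 transcript per gene, stood in 14 of the 100 members (14%) and in 501 of 13523 protein-coding genes tested (3.70%). The contexts below, 12 bases before the start codon and 12 from it, are from GENCODE 29 transcripts. Capitals mark the 8 letters, or the start codon alone in the 3 members without them. They are shown as examples with and without the letters among members whose fold changes are given further on.

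NDUFA2: atattaacaaggATGGCGGCggcc
SDHB: tcaggagccaagATGGCGGCggtg
ATP5IF1: gctccagcagcaATGgcagtgacg
NDUFS5: catcgggtagccATGcctttcttg
SDHA: gcaacagcagacATGtcgggggtc

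In GRCh38, NDUFA2 lies at chr5:140638740-140647785 and SDHB at chr1:17018722-17054170, both on the minus strand. On the plus strand are ATP5IF1 at chr1:28236109-28246906, NDUFS5 at chr1:39026318-39034636 and SDHA at chr5:218241-256700. The fold changes of members with and without the 8 letters had similar medians. In the mock pellet against the input the median log2 fold change was -0.76 in the 14 members with them and -0.71 in the 86 without, and in the PEG pellet it was 1.11 and 1.01.

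Respiratory chain mRNAs took a smaller share of the mock, dsRNA and silvestrol pellets than of the input, and a larger share of the PEG pellet. Summed over the 100 members they made up 1.34%, 1.14% and 1.13% of all counts in the 3 input libraries. The share was 0.818%, 0.804% and 0.730% in the mock pellets, 0.745%, 0.735% and 0.721% with dsRNA, and 0.704%, 0.755% and 0.749% with silvestrol. In the PEG pellets it was 1.87%, 2.00% and 1.96%. The mock, dsRNA and silvestrol libraries were all below all input libraries and the PEG libraries all above them. The order was the same for complex I, whose share averaged 0.366% ± 0.0418 in the input, 0.233% ± 0.0125 in the mock pellet and above both in every PEG library (SD, n = 3).

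In the mock pellet 73 members fell against the input and 1 rose, by the quasi-likelihood test of edgeR at a Benjamini-Hochberg adjusted p under 0.05 over all genes. Of all genes tested, 15.8% fell and 17.6% rose. The members' median log2 fold change was -0.72, beside 0.00 for all genes tested. Of the members, 79 had every mock library below every input library, as did 26.0% of all genes. The count of members that fell was 45 without mock replicate 2 and 42 without mock replicate 3.

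Treatment with dsRNA or silvestrol gave similar counts against the same input libraries. With dsRNA, 79 members fell and 1 rose (median log2 fold change -0.76), where 19.6% of all genes fell and 21.1% rose. With silvestrol, 75 fell and 1 rose (median -0.83), where 18.1% of all genes fell and 19.4% rose. Every library lay below every input library for 85 members in each of these pellets, and for 28.9% of all genes with dsRNA and 27.8% with silvestrol. These 3 comparisons share the input libraries.

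**Figure D1:**
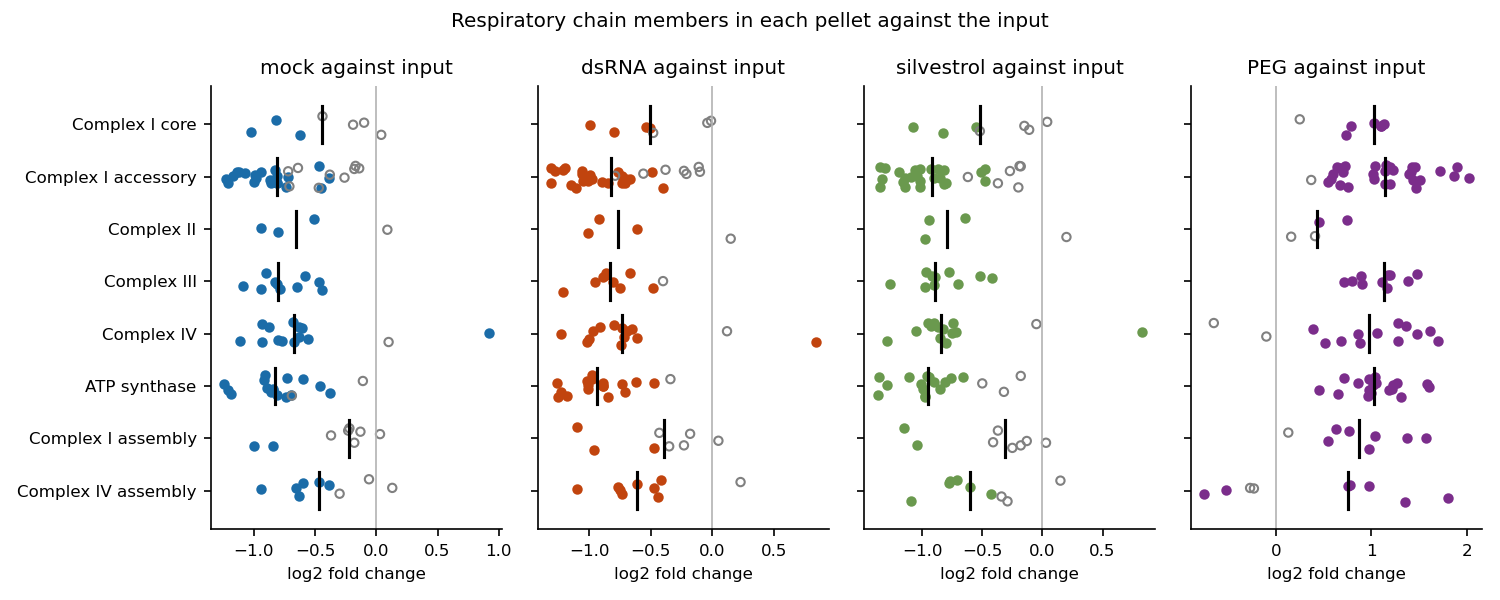
Log2 fold change (horizontal axis) of each of the 100 members in the mock, dsRNA, silvestrol and PEG pellets against the input, by role; filled points passed the test, open points did not, and black bars are medians. Most members lie left of 0 in the first 3 panels, where the medians over all members are -0.72, -0.76 and -0.83, and right of 0 with PEG, where the median is 1.03.

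The lowest fold changes were those of small complex I and ATP synthase proteins. NDUFS5, an accessory subunit of complex I, had 444, 317 and 332 CPM in the input, 159, 148 and 148 in the mock pellet, 136, 150 and 142 with dsRNA and 127, 141 and 151 with silvestrol. The groups did not overlap with the input, and its log2 fold change in the mock pellet was -1.23 (SE 0.153, edgeR adjusted p = 0.00358). ATP5IF1, which inhibits ATP hydrolysis by ATP synthase, had 177, 90.5 and 97.5 CPM in the input and 52.9, 50.8 and 46.4 in the mock pellet. Input replicate 1 was the high library, and the log2 fold change was -1.24 (SE 0.253, edgeR adjusted p = 0.0104) with all libraries and -0.92 in replicates 2 and 3 alone. ATP5PD, a stalk subunit of ATP synthase, had 149, 143 and 139 CPM in the input and 60.7, 61.4 and 59.5 in the mock pellet, a tight pair of groups with a log2 fold change of -1.21 (SE 0.0975, edgeR adjusted p = 0.00358). NDUFA12 and NDUFA6, both of complex I, were among the 3 lowest with dsRNA (log2 fold change -1.28 and -1.31), and ATP5MK, of the membrane part of ATP synthase, was among the 3 lowest with silvestrol (-1.36).

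The changes differed between roles within complex I. Of its 30 accessory subunits 21 fell in the mock pellet (median log2 fold change -0.81), whereas 3 of the 7 core subunits, which carry the redox centres and the catalysis, fell (median -0.44) and 4 did not pass. NDUFV1, which binds NADH, had 187, 168 and 175 CPM in the input and 173, 155 and 156 in the mock pellet, and these ranges overlap (log2 fold change -0.10). NDUFS7, another core subunit, fell by 0.62 on the log2 scale (edgeR adjusted p = 0.00540). The difference between accessory and core subunits was not tested.

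Complex II, succinate dehydrogenase, is the one complex with no mtDNA-encoded subunit. SDHB, SDHC and SDHD fell in the mock pellet, with log2 fold changes of -0.94, -0.51 and -0.80. SDHA, the flavoprotein subunit that oxidises succinate, had 134, 96.3 and 101 CPM in the input, 131, 111 and 102 in the mock pellet, 147, 108 and 99.7 with dsRNA and 144, 110 and 116 with silvestrol. These ranges overlap in every case, and replicate 1 was the highest library of each group (log2 fold change in the mock pellet 0.09, SE 0.163, edgeR adjusted p = 0.693).

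All 10 members of complex III fell in the mock pellet, with log2 fold changes from -1.09 for UQCRQ to -0.44 for CYC1, the cytochrome c1 gene. UQCRH and UQCRHL are near-identical copies, so reads between them are uncertain. In complex IV 12 of 14 members fell, among them COX4I1 (-0.63), COX6C (-0.67), COX7C (-0.63), COX7A2 (-0.61) and its relative COX7A2L (-0.80). In ATP synthase 16 of 18 fell, including the 3 genes ATP5MC1, ATP5MC2 and ATP5MC3 (-0.73, -0.46 and -0.70), which encode the same mature c-ring protein. Of the F1 part, ATP5F1B, the catalytic beta subunit, fell by 0.60 on the log2 scale, and ATP5F1A, the alpha subunit, had a log2 fold change of -0.11 that did not pass.

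Assembly factors fell less often by count, 8 of 17 in the mock pellet with a median log2 fold change of -0.37; this difference from the subunits was not tested. NDUFAF2, a complex I assembly factor, fell by 1.00 on the log2 scale, and NDUFAF1, another, had -0.13. COX19, a copper-handling protein of complex IV assembly, had 18.7, 15.8 and 14.7 CPM in the input and 18.6, 17.6 and 16.3 in the mock pellet, with overlapping ranges. The single member that rose was COX7A1, an isoform of complex IV of contractile tissue. It was rare, at 0.808, 0.994 and 1.30 CPM in the input and 1.84, 2.41 and 1.55 in the mock pellet (log2 fold change 0.92, edgeR adjusted p = 0.0357), and it did not pass in any of the 6 fits that left out a library.

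With dsRNA 23 of 30 accessory and 4 of 7 core subunits of complex I fell, with medians of -0.82 and -0.51, and with silvestrol 24 and 3 fell, with medians of -0.92 and -0.52. ATP synthase had 17 members that fell with dsRNA and 15 with silvestrol (medians -0.93 and -0.95), and complex III 9 and 10 of 10, CYC1 being the one that did not pass with dsRNA (-0.40). Complex IV had 12 of 14 in both. Of the 17 assembly factors 11 fell with dsRNA (median -0.47) and 8 with silvestrol (-0.41). For complex I these were 3 of 8 with dsRNA and 2 of 8 with silvestrol, and for complex IV 8 of 9 and 6 of 9. NDUFAF7, a complex I assembly factor, stayed near the input, with a log2 fold change of 0.05 with dsRNA (SE 0.117, edgeR adjusted p = 0.749).

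**Figure D2:**
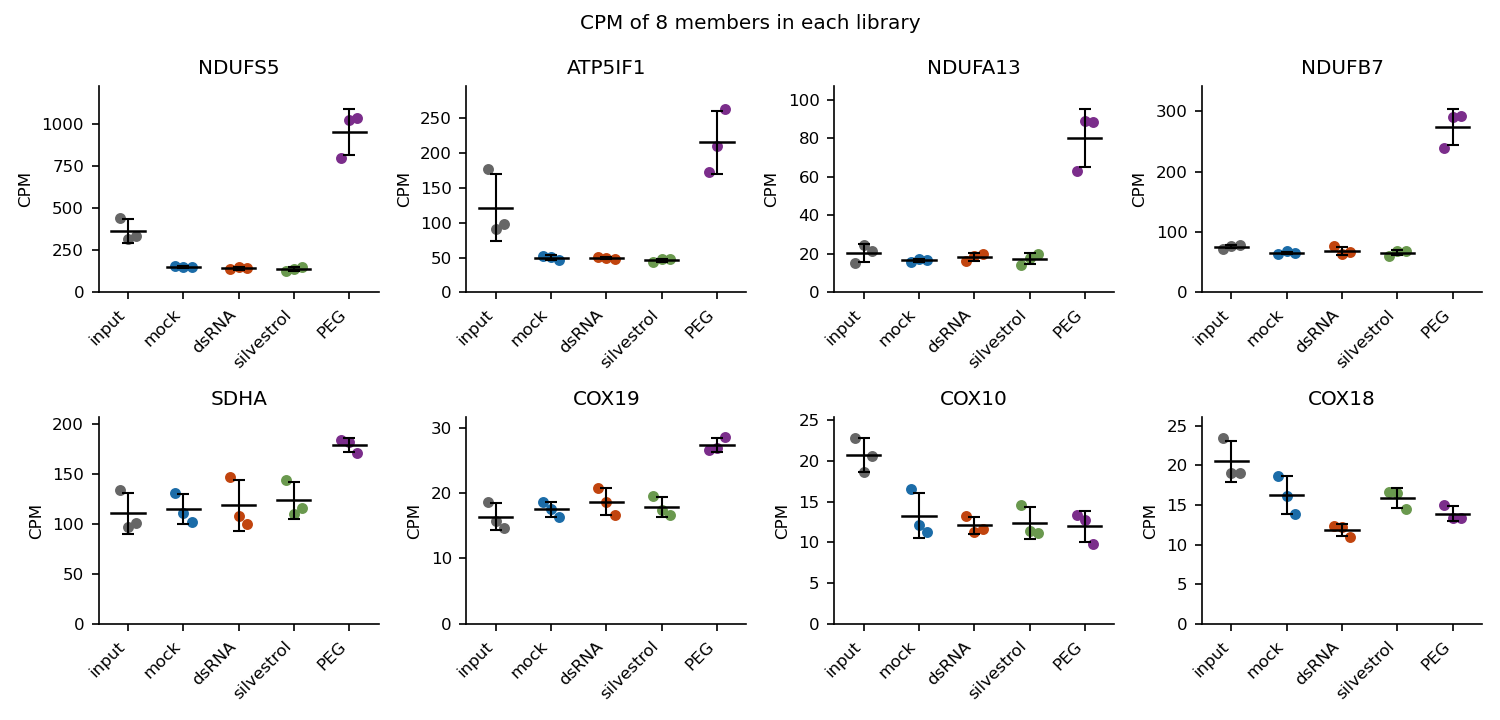
CPM (vertical axis, from 0) of 8 members in each library of the 5 groups; points are libraries, bars the mean and error bars the SD (n = 3). NDUFS5 and ATP5IF1 are low in the mock, dsRNA and silvestrol pellets and high with PEG, SDHA and COX19 overlap with the input in all but PEG, and COX10 is below the input in every pellet.

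With PEG the direction was the opposite. Against the input 89 members rose and 2 fell, where 25.5% of all genes rose and 25.9% fell, and the members' median log2 fold change was 1.03 beside -0.01 for all genes. In 88 members every PEG library lay above every input library, as it did for 28.7% of all genes. Scaled by library size alone, the median of all genes was -0.36 and that of the members 0.68, which is 1.04 above it, and 72 members rose. EPCAM rose with PEG as well (log2 fold change 0.72, edgeR adjusted p = 0.0101). Of the lineage markers tested, VIM (0.80) and SPARC (0.58) rose, COL1A1 fell (-0.74), and RUNX2 (-0.32) and CD44 (0.23) did not pass. The part of these markers in the members' values was not tested. With an offset for transcript length, chosen after seeing the data, 61 members rose and the median was 0.61. The share of all genes that rose by library size alone or with this offset is not given here. The counts of 72 and 61 members thus have no background beside them. Against the mock pellet 95 members rose and 1 fell (median 1.81), where 31.3% of all genes rose and 32.2% fell. Since the mock libraries are the controls there and the input libraries in the other comparison, both use the same PEG libraries.

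The 3 highest in the PEG pellet against the input were complex I accessory subunits. NDUFA13 had 15.4, 24.4 and 21.5 CPM in the input and 63.1, 89.3 and 88.6 with PEG, a log2 fold change of 2.02 (SE 0.191, edgeR adjusted p = 0.000254). NDUFB7 had 72.6, 76.6 and 78.8 CPM in the input and 239, 291 and 292 with PEG (1.90, SE 0.126, edgeR adjusted p = 0.000217). For NDUFA1 the log2 fold change was 1.87. None of these 3 passed in the mock pellet, where their log2 fold changes were -0.26, -0.18 and -0.38. NDUFA13 and NDUFA1 did pass there with the replicate block. Against the mock pellet the highest were NDUFS5 (2.72), NDUFA2 (2.64) and COX6B1 (2.60), and NDUFS5 rose there to 796, 1022 and 1036 CPM.

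Complex III and ATP synthase rose as a whole with PEG, 10 of 10 and 18 of 18 members against the input. Complex II moved least among the complexes by median (0.43). SDHA (0.74) and SDHD (0.45) rose, while SDHC had a log2 fold change of 0.16 and SDHB of 0.41 (edgeR adjusted p = 0.0734, and 0.0445 with the replicate block). Against the mock pellet all 4 rose, as did all 37 members of complex I, 12 of 14 of complex IV and 14 of 17 assembly factors. The member that fell there was COX7A1, at 1.28, 0.494 and 0.297 CPM with PEG (log2 fold change -1.51, edgeR adjusted p = 0.0135), which did not pass without PEG replicate 2 or without PEG replicate 3. NDUFS1, the largest core subunit of complex I, had a log2 fold change of 0.25 against the input and did not pass.

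Both members that fell with PEG act in the assembly of complex IV. COX10, which makes the haem of the enzyme, had 22.8, 18.7 and 20.6 CPM in the input and 13.4, 12.7 and 9.80 with PEG, with no overlap (log2 fold change -0.75, SE 0.166, edgeR adjusted p = 0.00543). COX18, which inserts a complex IV subunit into the inner membrane, had 23.5, 19 and 19.1 CPM in the input and 15, 13.4 and 13.4 with PEG (-0.52, SE 0.151, edgeR adjusted p = 0.0183), and -0.02 with the transcript length offset. COX15, a further haem enzyme, and COX11 had log2 fold changes of -0.23 and -0.27 that did not pass. COX17, a copper chaperone, rose by 1.80 on the log2 scale.

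The members' mRNAs are short. The median length of the transcript used per gene was 1166 nt in the members and 3203 nt in all protein-coding genes tested, and 87 of 100 members were under the latter. The median coding length was 417 nt against 1410 nt. Across the 100 members the Spearman correlation of coding length with log2 fold change was -0.521 in the PEG pellet against the input and 0.216 in the mock pellet; the members share all libraries and are not independent, and the 1 transcript that stands for each gene need not be the main one in U2OS cells. By transcript length, the median log2 fold change with PEG was 1.23 for the 44 members under 1 kb, 1.00 for the 26 from 1 to 2 kb and 0.69 for the 30 over 2 kb. In the mock pellet the same groups had medians of -0.81, -0.69 and -0.62. For transcript length the correlation was -0.502 with PEG against the input and 0.301 in the mock pellet. For GC content the values were 0.253 and 0.281, and for mean log2 CPM in the input 0.0415 and -0.309.

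**Figure D3:**
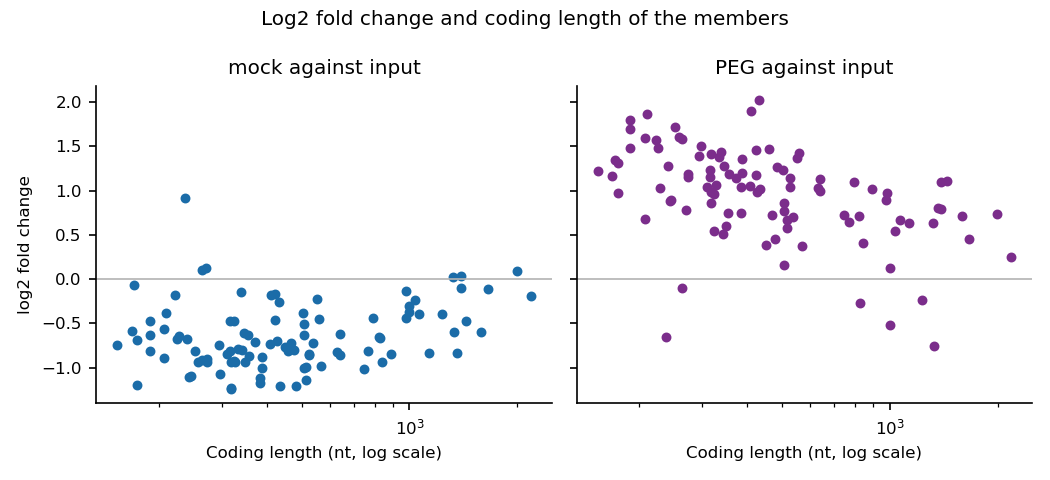
Log2 fold change (vertical axis) against coding length in nt (horizontal log axis) for the 100 members in the mock and PEG pellets against the input; each point is a gene. With PEG the longer coding sequences lie lower (Spearman -0.521), and in the mock pellet the trend is weak (0.216).

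The mtDNA-encoded mRNAs of the same complexes went the other way in the mock, dsRNA and silvestrol pellets. Of the 13, 11 rose in the mock pellet and 1 fell, with a median log2 fold change of 1.45, and 11 rose with dsRNA and with silvestrol (medians 1.66 and 1.61). MT-ND2, of complex I, rose by 1.72 on the log2 scale in the mock pellet and MT-CO1, of complex IV, by 1.14. MT-ND5 did not pass (-0.12), and MT-ND6, the only mtDNA-encoded protein gene of the light strand, fell (-0.85, edgeR adjusted p = 0.0459). MT-ND6 did not pass with dsRNA (-0.46) or silvestrol (-0.64). With PEG against the input 7 of the 13 rose (median 1.03), and with the transcript length offset 5 rose and 3 fell. The share of all genes with that offset is not given here. Against the mock pellet 1 of the 13 rose with PEG and 5 fell (median -0.32), where 31.3% of all genes rose and 32.2% fell. The members' median there was 1.81. The difference between the nuclear and mtDNA-encoded lists was not tested.

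**Figure D4:**
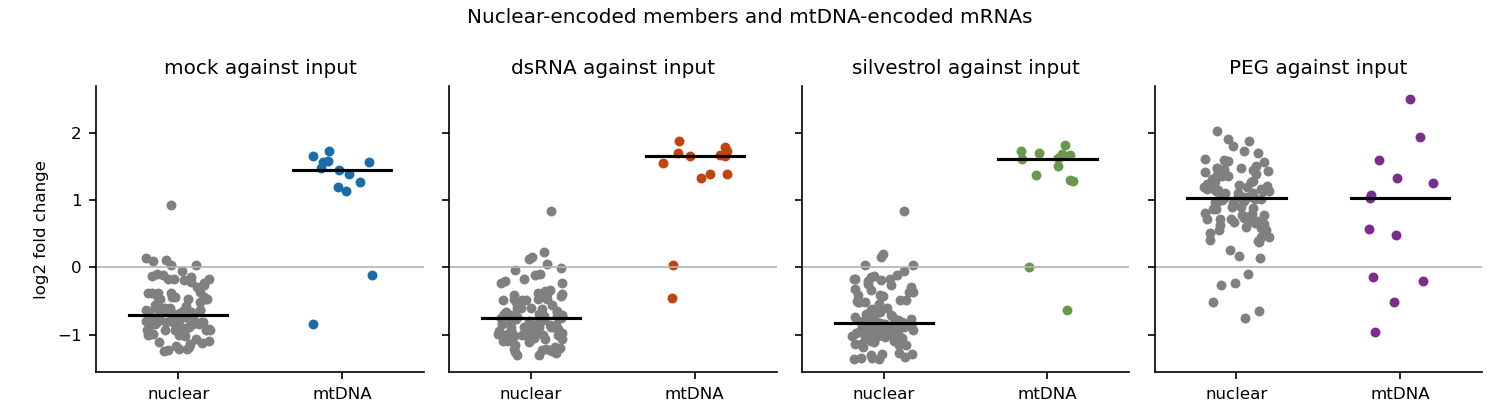
Log2 fold change against the input (vertical axis) of the 100 nuclear-encoded members and the 13 mtDNA-encoded mRNAs in each pellet; points are genes and black bars medians. In the mock pellet the medians are -0.72 and 1.45, and with PEG both are 1.03.

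Of other mitochondrial lists, 7 of 13 tricarboxylic acid cycle enzymes fell in the mock pellet and none rose, with FH, the fumarase gene, at -0.86 and OGDH, of the oxoglutarate dehydrogenase complex, at 0.32. With PEG 6 of these 13 rose and 2 fell. Of 35 further genes of cytochrome c and respiratory chain assembly, 15 fell and 2 rose in the mock pellet, where CYCS, cytochrome c itself, fell by 1.42 and SDHAF1, a complex II assembly factor, rose by 1.18 on the log2 scale.

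The pellets of treated and mock reactions were then compared with each other. In edgeR without a block none of the 100 members passed for dsRNA or silvestrol against mock or for dsRNA against silvestrol, and neither did any of the 16612 genes (0% in each direction). At an unadjusted p under 0.05 there were 7, 0 and 4 members and 374, 35 and 330 genes, and DESeq2 called 1, 0 and 2 members, where it called 0.385%, 0% and 0.409% of all genes. Same-numbered libraries moved together, and so did replicates 2 and 3 of different groups. With replicate number as a block, 8 members fell and none rose with dsRNA against mock, where 2.65% of all genes fell and 0.150% rose. Against silvestrol 6 members fell and none rose, where 2.49% of all genes fell and 0.235% rose. With silvestrol against mock no member passed, and 0.0120% of all genes rose and 0% fell. Both dsRNA comparisons use the same dsRNA libraries. Every dsRNA library lay below every mock library in 11 members and in 4.44% of all genes. Every silvestrol library did so in 8 members and in 308 of the 16612 genes. In neither comparison did a member lie above every mock library, as 361 genes did with dsRNA and 261 with silvestrol. Log2 fold changes against mock were under 0 in 76 members with dsRNA (median -0.07, all genes 0.01). With silvestrol they were under 0 in 86 (median -0.11, all genes 0.00). The members' median log2 ratios of the single mock libraries to the mock mean were 0.10, 0.01 and -0.11, a spread of similar size. The members share all libraries, and the share of all genes under 0 is not given here.

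ATP5F1A had 336, 336 and 281 CPM in the mock pellets, 250, 207 and 209 with dsRNA and 295, 323 and 290 with silvestrol. The dsRNA libraries were below all others, with a log2 fold change against mock of -0.52 (edgeR adjusted p = 0.867 without and 6.62e-08 with the block). ATP5F1C, the gamma subunit that turns within F1, had 122, 120 and 100 CPM in the mock pellets and 90.9, 90.1 and 87.5 with dsRNA. NDUFS1 had 105, 90.7 and 79.6 CPM with mock and 78.4, 70.7 and 69.6 with dsRNA, and COX18 had 18.7, 16.1 and 13.9 with mock and 12.4, 12.2 and 11 with dsRNA. In each of these the dsRNA library was the lower of every numbered pair. As they are listed for passing the fit that takes the numbers as pairs, this is no separate support. COX14, COX5A, ATP5MC3 and NDUFAF1 were the other 4 that fell with dsRNA against mock with the block, with log2 fold changes of -0.38, -0.26, -0.31 and -0.35. All but COX14 and COX5A also fell against silvestrol with the block.

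**Figure D5:**
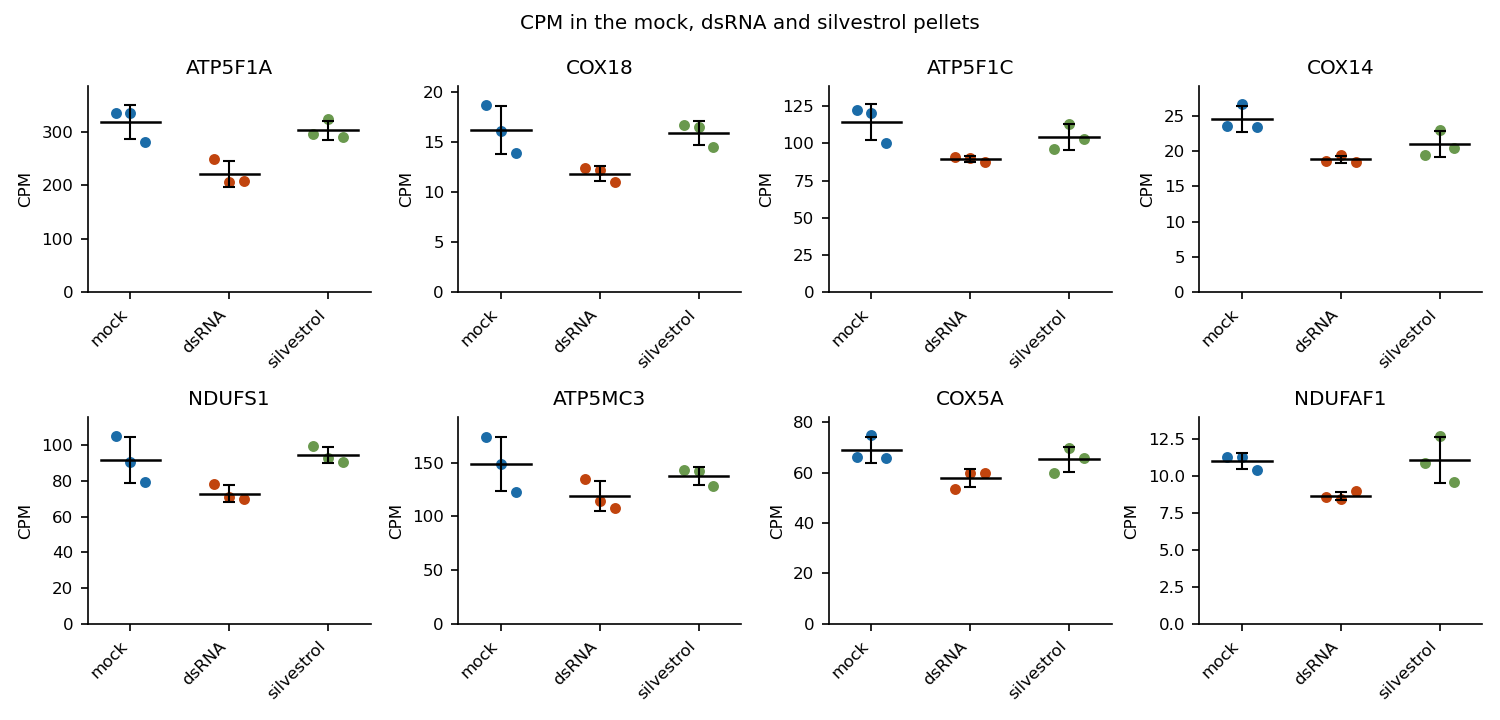
CPM (vertical axis, from 0) in the mock, dsRNA and silvestrol pellets of the 8 members that fell with dsRNA against mock with the replicate block; points are libraries in replicate order, bars the mean and error bars the SD (n = 3). For ATP5F1A the dsRNA libraries (207 to 250) lie below the mock libraries (281 to 336).

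Some members share sequence with other genes. Exons of 51 members overlap those of another gene, most of all COX20 (72.0% of its exon bases, with HNRNPU) and ATP5ME (61.6%, with MYL5), and whether strand was used in counting was not given. Of the 184 pseudogenes with such names, 3 passed the count limit and none had over 267 counts in a library.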

How the data were processed

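Per the labels, poly(A) RNA of 5 groups of 3 was sequenced. The submitters' processing notes name Trimmomatic 0.36, STAR 2.5.2b, featureCounts of Subread 1.5.2 and GRCh38. The authors deposited raw counts per gene; strand and annotation release were not given in the sources used here. Symbols, transcripts and types came from GENCODE 29. Genes that reached 10 counts in 2 or more replicates of every condition were tested (16612) with edgeR 4.0.16 (R 4.3.3; TMM scaling, quasi-likelihood test, 6 libraries per comparison, Benjamini-Hochberg adjusted p under 0.05), checked on simulated counts. In simulated mock and input counts with a replicate effect, the fit without a block found 57 of 200 changes of 1 on the log2 scale. The blocked fit found 190, with 15 other calls beside 0 without the block. The simulated effect followed the replicate numbers by construction, so this gain need not hold where the numbers pair libraries less well. With no such effect the fit without a block found 118 of 200, with 12 other calls. A member that did not pass may thus still have changed. CPM use TMM factors over 15 libraries. DESeq2 1.42.0, other scalings, filters and offsets, and leaving out each library were the alternatives. Same-numbered libraries correlated at 0.131 to 0.861 in 30 pairs and other pairs at -0.746 to 0.583, ranges that overlap. Replicate 1 differed most from the others in every group but PEG. Input replicate 2 correlated at 0.583 with mock replicates 2 and 3 alike, so how far the numbers pair replicates 2 and 3 is uncertain. The fit blocked on replicate takes the numbers as pairs and is given for some members only. No libraries were duplicates. Members named have a fixed role, or were the 3 highest or lowest in a comparison with average log2 CPM of at least 3, went against the direction of most, or passed with the block. The values of 1 member that these criteria name are not reported here. Members and lists were chosen with earlier results of these data known. Nothing in the sources says whether replicates were separate extract preparations beyond the label of biological replicates.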

Additional observations from a re-analysis of the deposited data

How the results depend on the processing

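The members' direction was kept in every setting tried for the comparisons with the input and for PEG against mock, as the median log2 fold change of the members kept its sign in each, while counts of calls moved. Shares of all genes under these settings are not given in this section, so its counts show only how the members' calls depend on the setting. With an absolute log2 fold change over 1 also required, 13 members fell in the mock pellet, 25 with dsRNA and 26 with silvestrol against the input. At that limit 52 rose and 0 fell with PEG, and 0 rose in the mock, dsRNA and silvestrol pellets. Leaving out 1 library at a time gave 42 to 72 members lower and 0 to 0 higher for mock, 62 to 81 lower and 0 to 1 higher for dsRNA, 64 to 77 lower and 0 to 1 higher for silvestrol, 77 to 94 higher and 2 to 4 lower for PEG against input, and 93 to 96 higher and 0 to 1 lower for PEG against mock; it gave 0 calls in the 3 comparisons among the mock, dsRNA and silvestrol pellets. The 1 member that rose against the input (COX7A1) was not called (0) with the GC offset in all 3 pellets, without the count filter or with all 5 groups in 1 fit for dsRNA and silvestrol, or in thinned libraries for silvestrol; in replicates 2 and 3 only, 2 members rose with dsRNA and 3 with silvestrol. The members that fell with PEG against input numbered 4 by library size only and in replicates 2 and 3 only, and 1 with the GC or length offset, with or without the block; against mock they numbered 3 by library size only and 2 with the block and length offset.

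With the replicate block, 8 members fell with dsRNA against mock and 6 against silvestrol; with GC offset as well 8 and 6 (and 1 rose against silvestrol), with length offset 10 and 7, with transcript length offset 9 and 7. In replicates 2 and 3 only, 2 and 2 fell, and with DESeq2 1 and 2. The block moved no other count of calls by over 1.5 times. Against the input, 84, 86 and 84 members fell with it in the mock, dsRNA and silvestrol pellets. The share of all genes that fell in these blocked fits is not given here. A rise in calls with the block thus cannot be read as particular to the members. Of the members, 16 passed in none of these 3 pellets without the block, and 9 in none with or without it.

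Log2 fold changes near 0 changed sign in some settings, and the cause was not tested. In the mock pellet SDHA (main value 0.092) was -0.052 with GC offset, -0.062 with length offset, and -0.031 and -0.054 with these and the block, ATP5F1A was 0.025 with GC offset and 0.024 with the block too, and NDUFAF1 was 0.0 with block and GC offset. With dsRNA NDUFV1 was 0.037 by library size only, 0.092 with transcript length offset with or without the block and 0.006 in thinned libraries, and SDHA was -0.042, -0.017, -0.029 and -0.024 with GC offset, length offset and each with the block. With silvestrol, GC offset without and with the block gave NDUFAF1 0.02 and 0.014 and NDUFS1 0.058 and 0.057. With PEG against input COX11 was 0.035 and 0.036 with GC offset without and with the block, SDHB -0.153 and -0.123 and SDHD -0.048 and -0.046 with transcript length offset, and by library size only NDUFS1 was -0.09 and SDHC -0.179. With PEG against mock COX10 was 0.032 in replicates 2 and 3 only, COX15 -0.233 by library size only, and COX18 0.166 and 0.182 with length offset and 0.472 and 0.487 with transcript length offset, without and with the block. Leaving out 1 library at a time, SDHA ranged from -0.033 to 0.233 in the mock pellet and from -0.042 to 0.299 with dsRNA, NDUFV1 from -0.078 to 0.041 and NDUFAF7 from -0.011 to 0.077 with dsRNA, and COX10 from -0.204 to 0.111 with PEG against mock. Over all named members and comparisons, leaving out 1 library kept direction and call in 1039 values, lost the call in 123, gained it in 10 and changed the sign in 10.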
